A study of Mus musculus with 12 samples.

Results

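The genes described here are 39 genes of fatty acid oxidation, peroxisomes and ketone metabolism, chosen by name for their known function, out of 61210 genes in the count table. The choice was made with earlier results of these data known. All 39 were found in the table and passed the filter on low counts, which left 16737 genes for testing. They fall into 19 mitochondrial genes (the carnitine shuttle, the enzymes of the β-oxidation cycle and the electron transfer flavoproteins), 9 genes of acyl-CoA handling, 9 peroxisomal genes and 2 genes of ketone metabolism.

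Total RNA of interscapular brown adipose tissue (iBAT, as the study's methods name it, although the deposited design text calls it inguinal) was sequenced from wild type C57BL/6N mice aged 20 weeks, in 4 groups of 3 libraries. Mice on normal chow diet (NCD, V1554 of Ssniff) or on a diet high in fat (HFD, diet D12492 (I) mod. of Ssniff, fed for 12 weeks from 8 weeks of age) were kept at room temperature (RT) or exposed to 4 °C for 24 h (cold). Replicates 1 and 2 of each group carry the label batch 1 and replicate 3 the label batch 2, so that every comparison holds both batches. Library totals ranged from 15136861 to 46740702 counts, and the 4 batch 2 libraries were the deepest. Levels are given as CPM (counts scaled to library size) after TMM scaling, and a gene was called in a comparison of 2 groups at an adjusted p (edgeR's quasi-likelihood test, Benjamini-Hochberg) below 0.05 with an absolute log2 fold change above 0.5. The cold treatment is compared within each diet, and the HFD within each temperature, so each group enters 2 of these comparisons and they are not independent of each other. The labels do not say how many mice stand behind a library, and the p-values measure the spread between these libraries.

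Brown adipocytes burn fatty acids to produce heat. A fatty acid is first activated to its acyl-CoA by a synthetase, can be released again by a thioesterase, and crosses into the mitochondrial matrix as a carnitine ester. There it is shortened in a cycle of dehydrogenation, hydration, a further dehydrogenation and thiolysis, and the electrons of the first step pass through the electron transfer flavoproteins to the respiratory chain. Peroxisomes shorten very long and branched chains by a parallel set of enzymes, and ketone bodies are made from acetyl-CoA in liver and oxidised in other tissues.

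In the cold, Cpt1a, Slc22a5, Acsl5, Acot1 and Ehhadh rose and Abcd2 fell on either diet. Of all 19 mitochondrial genes, 3 rose on NCD, and 2 rose and 4 fell on HFD. Of the 15 mitochondrial enzymes and flavoproteins beyond the carnitine shuttle, none was called on NCD and 4 fell on HFD. The difference between the cold effects on the 2 diets (interaction) was called by edgeR in 0 of these 15, by DESeq2 in 1. With only the 6 HFD libraries compared, 0 of the 15 were called lower in the cold. In tissue RNA, fewer cells of a type and less RNA per cell cannot be told apart. On NCD, 8 of the 39 genes rose and 1 fell, against 3.72% of all tested genes called higher and 2.55% called lower. On HFD, 9 rose and 5 fell in the cold, against 5.39% called higher and 4.19% called lower among all genes. The HFD at RT raised 2 of the 39 and lowered 1, where 0.992% of all genes were called higher and 1.09% lower, and in the cold it raised 2 and lowered 3, where the shares of all genes were 2.06% and 2.69%. Scaling by library totals alone shifted the median of all genes to 0.22 at RT and 0.32 in the cold for the HFD comparisons (log2, against 0.03 and 0.02), and with it 8 members were called higher and 1 lower at RT and 5 higher and 2 lower in the cold. Of all genes, that scaling called 3.93% higher and 0.795% lower at RT and 13.2% higher and 1.4% lower in the cold, so the members' rises in the cold were then close to the share of all genes. In the test over all 4 groups at an adjusted p below 0.001, 5 genes were called (Cpt1a, Slc22a5, Acsl5, Acot2 and Abcd2), as were 2.55% of all genes. Altogether 20 of the 39 genes were called in at least 1 comparison of 2 groups, as were 15.5% of all genes. The members, and the lists of other genes used below, were chosen with earlier results of these data known. Their shares beside those of all genes are therefore a description and not a test.

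**Figure D1:**
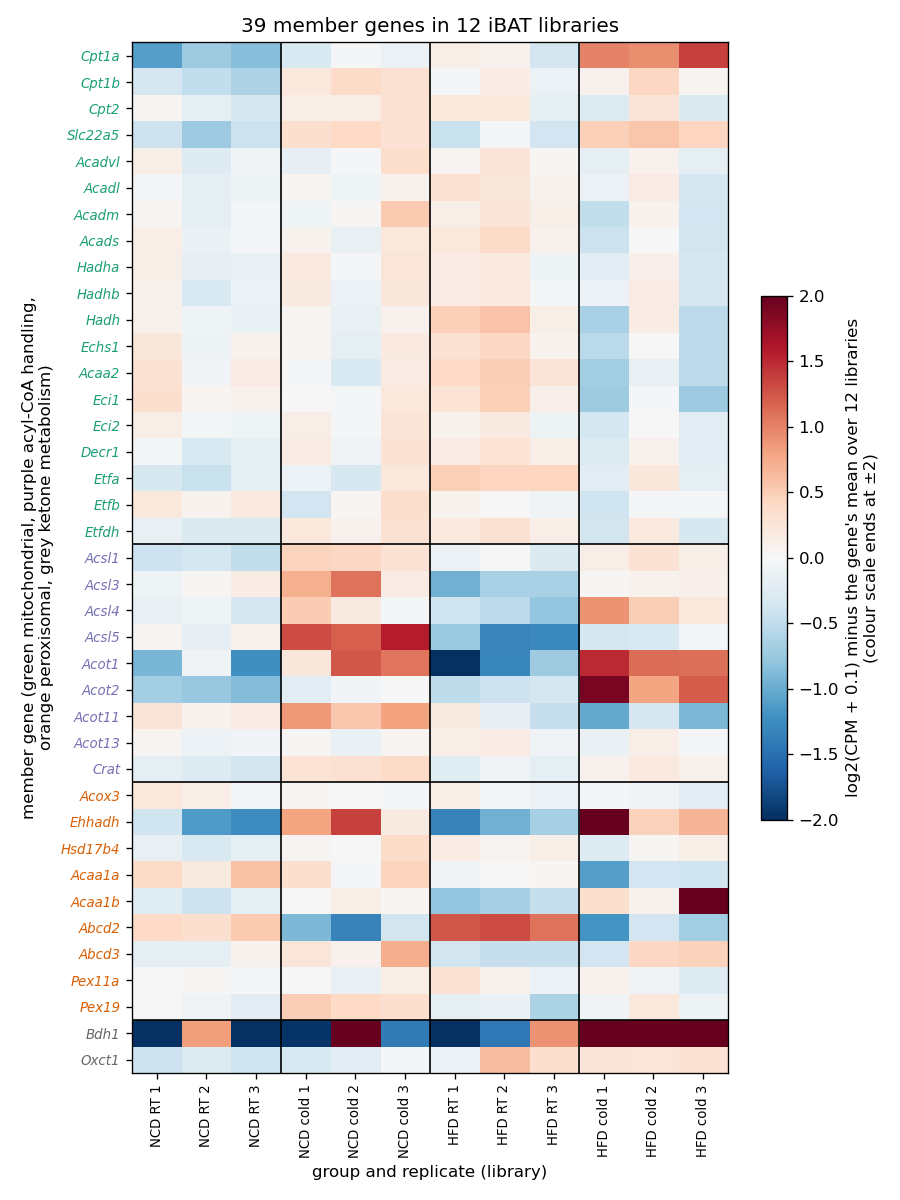
Heat map of the 39 genes (rows, ordered by role, with label colours for the 4 classes) in the 12 libraries (columns, by group and replicate); colour is log2(CPM + 0.1) minus the gene's mean over all libraries. Cpt1a is highest in the 3 HFD cold libraries, Acsl5 is highest in the 3 NCD cold libraries, and Bdh1 is high in all 3 HFD cold libraries and in single libraries of the other groups.

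The promoters of 4 members are printed here, from 250 bases before to 50 after the RefSeq start site on GRCm38.p6, each in the direction of its gene. Cpt1a and Acsl5 are shown because they were the members called in all 4 comparisons of 2 groups, and Echs1 and Etfa because their windows were the member windows that held the motif searched for. Capitals mark a direct repeat of the half-site AGGTCA with 1 base between the repeats and up to 2 mismatches, the element that PPAR and RXR dimers are known to bind.
Cpt1a: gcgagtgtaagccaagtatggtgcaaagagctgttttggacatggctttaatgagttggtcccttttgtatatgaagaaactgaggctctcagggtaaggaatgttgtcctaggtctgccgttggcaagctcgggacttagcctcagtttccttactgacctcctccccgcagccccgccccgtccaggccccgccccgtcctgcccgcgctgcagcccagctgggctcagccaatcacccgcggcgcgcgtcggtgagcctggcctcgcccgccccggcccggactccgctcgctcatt
Acsl5: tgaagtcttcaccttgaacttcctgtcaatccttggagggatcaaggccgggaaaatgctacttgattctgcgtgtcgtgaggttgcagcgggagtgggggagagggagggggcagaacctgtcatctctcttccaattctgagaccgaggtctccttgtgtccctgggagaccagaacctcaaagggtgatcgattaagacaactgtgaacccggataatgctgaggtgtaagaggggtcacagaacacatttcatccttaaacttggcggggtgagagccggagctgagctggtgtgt
Echs1: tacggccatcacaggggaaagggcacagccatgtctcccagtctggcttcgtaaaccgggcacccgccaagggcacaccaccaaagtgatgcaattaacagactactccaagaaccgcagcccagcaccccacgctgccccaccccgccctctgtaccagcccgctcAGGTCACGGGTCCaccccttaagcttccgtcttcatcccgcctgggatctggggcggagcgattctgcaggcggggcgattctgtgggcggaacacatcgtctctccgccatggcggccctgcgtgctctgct
Etfa: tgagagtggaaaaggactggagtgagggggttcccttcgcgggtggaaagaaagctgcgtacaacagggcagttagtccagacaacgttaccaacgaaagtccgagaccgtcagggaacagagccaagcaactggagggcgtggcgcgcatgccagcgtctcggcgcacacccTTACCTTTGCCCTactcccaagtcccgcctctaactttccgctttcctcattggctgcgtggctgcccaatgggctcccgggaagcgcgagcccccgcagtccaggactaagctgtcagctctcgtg

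The Cpt1a window lies at chr19:3323051-3323350 on the plus strand and the Acsl5 window at chr19:55253119-55253418 on the plus strand. The Echs1 window lies at chr7:140116372-140116671 and the Etfa window at chr9:55512194-55512493, both on the minus strand. The repeat began at position -83 from the start site in Echs1, on the gene's strand, and at position -77 in Etfa, on the opposite strand. RefSeq windows were at hand for 31 of the 39 genes (35 windows), searched on both strands. The repeat with up to 2 mismatches was in 2 of these 35 (5.71%) and in 1268 of all 32851 windows (3.86%), and the exact repeat was in 0 of 35 and in 13 of all windows (0.0396%). The estrogen-related receptor element TCAAGGTCA, which contains the same half-site, was in 0 of 35 and 0.423% of all windows. The cyclic AMP response element TGACGTCA was in 0 of 35 and 1.79% of all windows.

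The members spanned a wide range of levels, given here per length as CPM per kb of the longest annotated transcript. The order depends on this length, which was 4388 bases for Hadhb and 1516 for Acaa2. By CPM alone, Hadhb (4659 CPM in NCD RT) stood above Acaa2 (2085 CPM). Which transcripts the tissue uses was not tested. In NCD RT the highest was Acaa2, a thiolase of the mitochondrial matrix, at 1376 ± 167 CPM per kb (SD, n = 3), followed by Acadvl, the very long chain acyl-CoA dehydrogenase, at 1218 ± 157, and Hadhb, the β subunit of the trifunctional protein, at 1062 ± 143. Neighbours among these 3 differed by less than the SD of the higher one. The lowest mitochondrial member was Cpt1a, the liver form of carnitine palmitoyltransferase 1, at 6.09 ± 0.805, whereas Cpt1b, the muscle and brown fat form, stood at 389 ± 36.7 CPM per kb. Among the acyl-CoA genes the highest was Acsl1 at 507 ± 23.6 and the lowest was Acot1 at 2.5 ± 1.11 CPM per kb. Among the peroxisomal genes Abcd3, a transporter of the peroxisomal membrane, was highest at 153 ± 15.5, next to Hsd17b4 at 137 ± 7.5, and Acox3 at 18.0 ± 1.51 and Acaa1b at 18.7 ± 1.54 were lowest and within 1 SD of each other. Of the ketone genes, Oxct1 stood at 68.0 ± 3.52 and Bdh1 at 0.514 ± 0.701 CPM per kb.

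**Figure D2:**
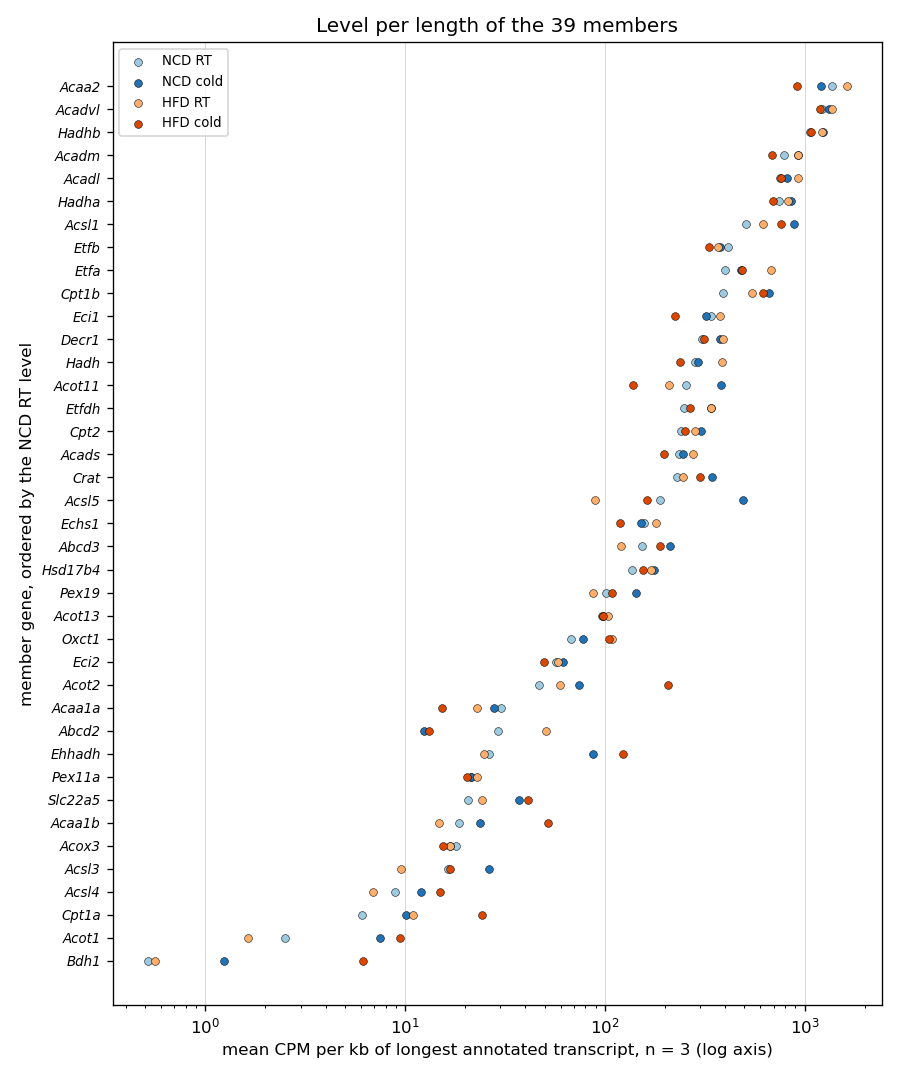
Mean CPM per kb of the longest annotated transcript (log axis, n = 3 libraries per group) for the 39 genes, ordered by their NCD RT level, with a point for each group. Enzymes of the mitochondrial cycle fill the top 3 ranks in every group, and Bdh1 is lowest in all 4 groups.

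The carnitine shuttle carries long acyl chains into mitochondria, and 3 of its 4 members rose in the cold on NCD. Cpt1a (chr19:3322334-3385733), which makes the acylcarnitine at the outer membrane, had 22.6, 29.5 and 26.8 CPM in NCD RT and 39, 47.8 and 44.5 in NCD cold. It had 52.5, 51.4 and 37.3 CPM in HFD RT and 96.3, 92.6 and 124 in HFD cold. The 3 HFD cold libraries lay above all others, the 3 NCD RT libraries lay below all others, and NCD cold and HFD RT overlapped. Its log2 fold change was 0.74 ± 0.17 (SE) for cold on NCD (adjusted p = 0.0221), 1.15 ± 0.17 for cold on HFD (adjusted p = 0.0019), 0.84 ± 0.17 for HFD at RT (adjusted p = 0.0269) and 1.26 ± 0.17 for HFD in the cold (adjusted p = 0.00245). Of the 4 shuttle genes, Cpt1a was the one called for the diet as well as for the cold. Without NCD RT replicate 1 or 3 or NCD cold replicate 2 or 3, its cold effect on NCD was no longer called (log2 0.65 to 0.75, adjusted p from 0.0591 to 0.0939), nor was its HFD effect at RT without any of the NCD RT replicates or HFD RT replicate 1 or 2 (log2 0.71 to 0.92, adjusted p from 0.0563 to 0.145).

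Slc22a5, the plasma membrane transporter that takes up carnitine, was called for the temperature on either diet and not for the diet. Its libraries held 67.4, 54.3 and 67.1 CPM in NCD RT, 113, 118 and 109.9 in NCD cold, 65.9, 87.3 and 68.8 in HFD RT and 125, 132 and 121 in HFD cold. Every cold library lay above every RT library, with a log2 fold change of 0.85 ± 0.12 on NCD (adjusted p = 0.0027) and 0.77 ± 0.12 on HFD (adjusted p = 0.00329). The HFD changed it by 0.23 ± 0.12 at RT (adjusted p = 0.347) and 0.15 ± 0.12 in the cold (adjusted p = 0.526).

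Cpt1b had 1238, 1112 and 1026 CPM in NCD RT and 1809, 2032 and 1935 in NCD cold, a rise of 0.77 ± 0.13 on the log2 scale (adjusted p = 0.00734). In HFD RT it had 1531, 1744 and 1449 CPM and in HFD cold 1655, 2094 and 1622, so that these groups overlapped and the cold difference was 0.19 ± 0.13 (adjusted p = 0.398). The difference between the cold effects on the 2 diets was -0.59 ± 0.19 and did not pass (interaction adjusted p = 0.628). Its exons share 2744 bases with a second annotated gene on the same strand, Gm44502, and how reads were split between them is uncertain. Cpt2, which returns the chain to coenzyme A in the matrix, had a cold difference of 0.33 ± 0.17 on NCD and -0.17 ± 0.17 on HFD and was not called.

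**Figure D3:**
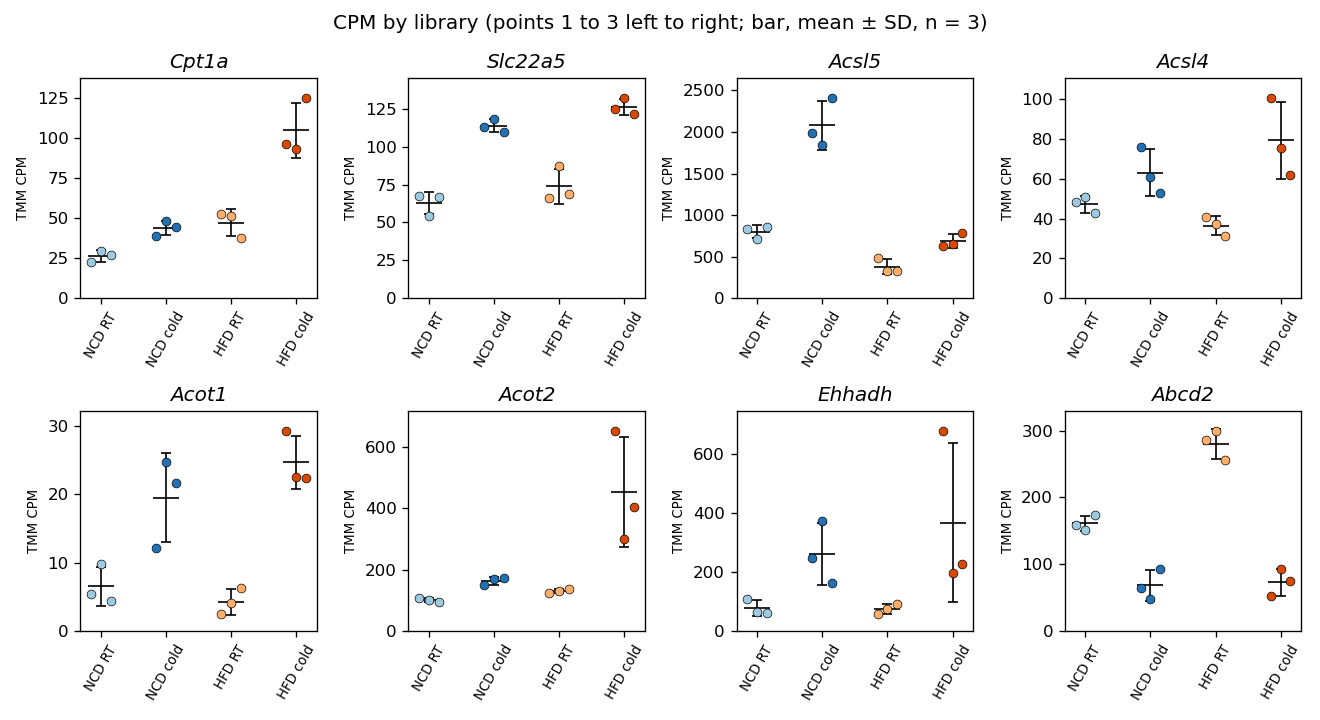
CPM (linear axes from 0) of 8 genes called in at least 1 comparison, by group; points are the libraries of replicates 1 to 3 from left to right, and bars are the mean ± SD (n = 3). Cpt1a steps up with cold and with HFD, Acsl5 steps up with cold and down with HFD, and Abcd2 falls in the cold on either diet.

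Long-chain acyl-CoA synthetases activate fatty acids. Acsl5 (chr19:55251938-55297720) had the smallest p of all members over the 4 groups (adjusted p = 6.09e-05). It had 838, 716 and 852 CPM in NCD RT, 1990.3, 1841 and 2404 in NCD cold, 482, 322 and 329 in HFD RT and 632, 653 and 786 in HFD cold. NCD cold lay above and HFD RT below all other libraries, and NCD RT and HFD cold overlapped. The cold raised it by 1.37 ± 0.18 on NCD (adjusted p = 0.0015) and by 0.87 ± 0.18 on HFD (adjusted p = 0.00982), and it was lower on HFD by a log2 difference of -1.09 ± 0.18 at RT (adjusted p = 0.0106) and -1.59 ± 0.18 in the cold (adjusted p = 0.00126). Without HFD RT replicate 2 the difference at RT was -0.99 ± 0.20 and not called (adjusted p = 0.0563). Its exons share 404 bases with Zdhhc6 on the opposite strand, and the strand setting of the quantification is not given in the sources used here. Such overlaps on the opposite strand were found for 14 members, among them Acot11 (1263 bases), Acadvl (1151) and Acsl1 (1039). On the same strand 3 members overlapped another gene: Cpt1b, Etfb (617 bases with Gm45233) and Acsl3 (244 with Utp14b). The split of reads is uncertain for these too.

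The other synthetases were each called in the cold on 1 diet. Acsl1, the most abundant of them, had 2891, 3004 and 2737 CPM in NCD RT and 5201, 5099 and 4694 in NCD cold, a log2 fold change of 0.80 ± 0.12 (adjusted p = 0.0032). On HFD it had 3541, 3807 and 3133 CPM at RT and 4185, 4667 and 4152 in the cold; the groups did not overlap, but the difference of 0.31 ± 0.12 was not called (adjusted p = 0.11). Acsl4, which prefers arachidonic acid, had 48.1, 50.8 and 42.6 CPM in NCD RT and 76.0, 60.7 and 52.9 in NCD cold (0.42 ± 0.19, adjusted p = 0.21). On HFD its 40.7, 37.2 and 31.3 CPM at RT stood against 100.4, 75.6 and 62.0 in the cold, a rise of 1.12 ± 0.19 on the log2 scale (adjusted p = 0.0042).

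Acsl3 had 60.2, 64.3 and 70.8 CPM in NCD RT, 104, 135 and 71.5 in NCD cold, 32.7, 40.5 and 40.4 in HFD RT and 64.4, 66.4 and 68.0 in HFD cold. Both cold groups lay above their RT groups, and both HFD groups lay below their NCD groups. Only the cold effect on HFD was called, with a log2 fold change of 0.81 ± 0.19 (adjusted p = 0.0197), and it was lost without HFD RT replicate 1 (0.75, adjusted p = 0.0684) or HFD cold replicate 3 (0.80, adjusted p = 0.0556). The other 3 differences had adjusted p of 0.0527 (cold on NCD), 0.057 (HFD at RT) and 0.0698 (HFD in the cold).

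Acyl-CoA thioesterases release free fatty acid and coenzyme A. Acot1, the cytosolic form, and its mitochondrial neighbour Acot2 lie side by side on chromosome 12 and share 29.2% of the 31-base words of the Acot1 transcript, so the split of reads between them is uncertain. Acot1 had 5.41, 9.82 and 4.38 CPM in NCD RT, 12.2, 24.7 and 21.7 in NCD cold, 2.45, 4.13 and 6.30 in HFD RT and 29.2, 22.5 and 22.4 in HFD cold. The cold raised it by 1.59 ± 0.38 on NCD (adjusted p = 0.0281) and by 2.5 ± 0.39 on HFD (adjusted p = 0.00299). Leaving out NCD RT replicate 1 or 3 or NCD cold replicate 2 or 3 ended its call on NCD (log2 1.36 to 1.52, adjusted p from 0.0725 to 0.111).

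Acot2 had 109.6, 103 and 96.4 CPM in NCD RT, 149, 169 and 174 in NCD cold, 123, 132 and 137 in HFD RT and 651, 302 and 405 in HFD cold. The HFD cold libraries lay above all others, with HFD cold replicate 1 highest. It rose in the cold on HFD by 1.79 ± 0.22 (adjusted p = 0.00106) and stood higher on HFD in the cold by 1.47 ± 0.22 (adjusted p = 0.00492), whereas its cold difference on NCD was 0.67 ± 0.22 (adjusted p = 0.0874). The summed CPM of Acot1 and Acot2 ranged from 101 to 115 in NCD RT, 162 to 196 in NCD cold, 126 to 144 in HFD RT and 325 to 680.5 in HFD cold, and these 4 ranges did not overlap.

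Acot11, a thioesterase known to be induced in brown fat by cold, had 1544, 1359 and 1434 CPM in NCD RT and 2358, 1877 and 2261 in NCD cold. On HFD it had 1467, 1154 and 939 CPM at RT and 636, 1019 and 696 in the cold. In the cold it was thus lower on HFD, by a log2 difference of -1.47 ± 0.20 (adjusted p = 0.00335), with no overlap between the groups. The cold differences were 0.58 ± 0.20 on NCD (adjusted p = 0.107) and -0.60 ± 0.20 on HFD (adjusted p = 0.0774), and their difference of -1.18 ± 0.28 had an adjusted p of 0.489 in edgeR and of 0.0149 in DESeq2. Acot13 stayed between 64.8 and 79.8 CPM in all 12 libraries. Crat, which moves acetyl groups between coenzyme A and carnitine, had 1017, 973 and 906 CPM in NCD RT and 1399.8, 1443 and 1516 in NCD cold, a rise of 0.59 ± 0.10 (adjusted p = 0.00637), and on HFD 989, 1112 and 1014 at RT against 1232, 1327 and 1238 in the cold (0.29 ± 0.10, adjusted p = 0.0865).

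The 15 mitochondrial enzymes and flavoproteins beyond the shuttle differed between the diets in their count of cold calls, a difference that the interaction tests gene by gene. On NCD, 0 of 15 were called in the cold by edgeR or by DESeq2, 11 had a log2 fold change above 0 and the median was 0.12, against -0.01 over all tested genes. At an unadjusted p below 0.05 there were 2 of the 15 on NCD (Decr1 and Etfdh), or 13.3% against 21.9% of all genes, and 9 of the 15 on HFD, or 60% against 27.5% of all genes. On HFD, all 15 had a log2 fold change below 0 in the cold, with a median of -0.35 against -0.04 over all genes, and 4 fell: Hadh, Echs1, Acaa2 and Eci1. Of all genes, 53.7% lay below 0 in this comparison. All 15 also lay below 0 under every alternative setting run for cold on HFD. These settings reuse the same libraries, and the 15 genes moved together by library. HFD RT replicate 3, for example, was the lowest of its group for 14 of them. The 15 genes are therefore not independent observations. For cold on NCD the direction depended more on single libraries. NCD cold replicate 3 was the highest of its group for all 15 genes. Without it, 9 of the 15 lay above 0 for cold on NCD and the median was 0.03. Over the alternatives the number above 0 ran from 8 with batch 1 alone (median 0) to 13 without NCD RT replicate 1 (median 0.19). For the HFD at RT, 14 of 15 lay above 0 (median 0.22) and Etfa was called. For the HFD in the cold, 14 of 15 lay below 0 (median -0.30), 5 had an unadjusted p below 0.05 (33.3%, against 22.7% of all genes) and 0 were called by edgeR and 1 by DESeq2, and this direction was lost with library totals alone (7 above and 8 below 0, median -0.01).

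**Figure D4:**
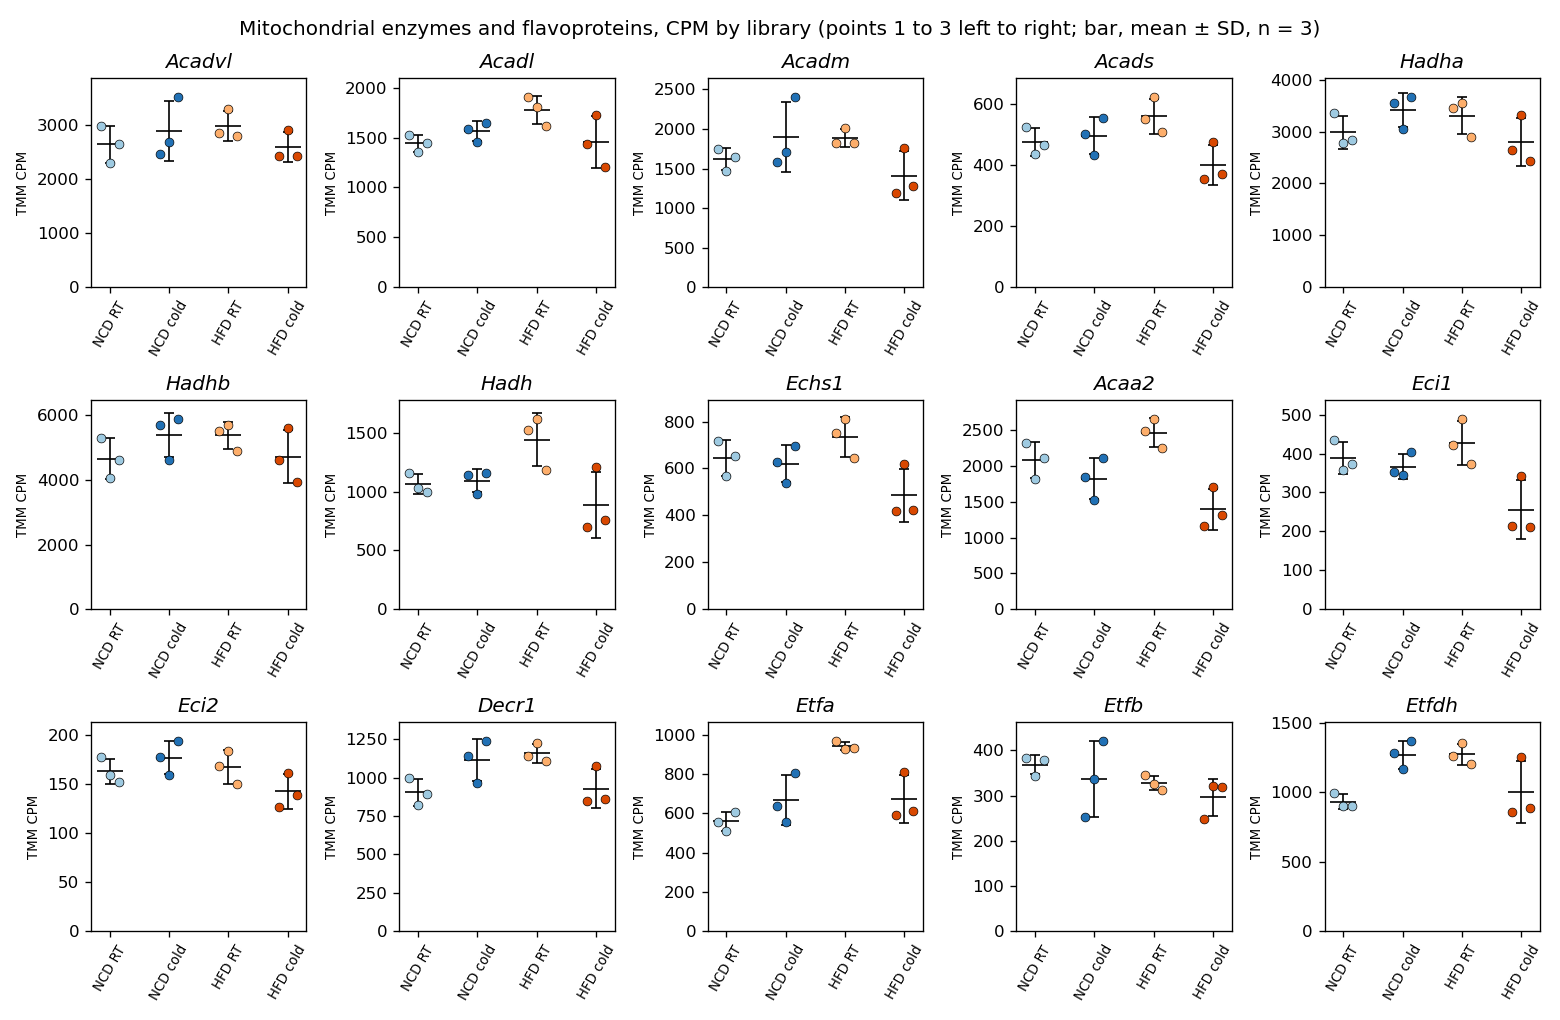
CPM (linear axes from 0) of the 15 mitochondrial enzymes and flavoproteins by group; points are replicates 1 to 3 from left to right and bars the mean ± SD (n = 3). In all 15 panels the HFD cold mean lies below the HFD RT mean, and HFD cold replicate 2 is the highest HFD cold library. NCD cold replicate 3 is the highest NCD cold library in all 15.

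Acaa2, a thiolase of the matrix that releases acetyl-CoA, had 2319, 1817 and 2119.9 CPM in NCD RT, 1846, 1529 and 2108 in NCD cold, 2498, 2655 and 2260.5 in HFD RT and 1164, 1708 and 1314 in HFD cold. Its HFD cold libraries lay below all HFD RT libraries, at -0.82 ± 0.17 on the log2 scale (adjusted p = 0.0114). Eci1, which moves double bonds of unsaturated chains into a position the cycle can use, had 434, 359 and 372 CPM in NCD RT, 352, 344 and 403 in NCD cold, 421, 488 and 374 in HFD RT and 213, 342 and 211 in HFD cold. It fell in the cold on HFD (-0.74 ± 0.19, adjusted p = 0.0266).

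Hadh, the short chain hydroxyacyl-CoA dehydrogenase, had 1159, 1032 and 1001 CPM in NCD RT, 1142, 983 and 1156 in NCD cold, 1528, 1615 and 1184 in HFD RT and 698, 1212 and 761 in HFD cold. Its HFD groups overlapped by HFD cold replicate 2, and the log2 difference was -0.70 ± 0.20 (adjusted p = 0.0456). Echs1, the short chain enoyl-CoA hydratase, had 718, 567 and 651 CPM in NCD RT, 629, 538 and 695 in NCD cold, 752, 809 and 644 in HFD RT and 421, 617 and 423 in HFD cold (cold on HFD -0.59 ± 0.17, adjusted p = 0.0478).

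Of these 4 calls, those of Hadh and Echs1 were closest to the threshold. Over 24 alternatives, Acaa2 kept its call in 21, Eci1 in 18, Hadh in 12 and Echs1 in 7. All 4 were lost with only the 6 HFD libraries compared (median of the 15 genes -0.34) and with batch 1 alone (median -0.30). Acaa2 lost its call without HFD cold replicate 1 (-0.68, adjusted p = 0.0525), and Eci1 lost it without HFD RT replicate 1 or 2 or HFD cold replicate 1 or 3 (-0.60 to -0.72, adjusted p from 0.065 to 0.109). Hadh lost its call without any library but HFD RT replicate 3 or HFD cold replicate 2 (-0.53 to -0.70, adjusted p from 0.0581 to 0.161), and Echs1 without any library but HFD cold replicate 2 (-0.48 to -0.68, adjusted p from 0.0535 to 0.17). The call of Echs1 was lost in 17 of 24 alternatives, among them batch as a term (-0.59, adjusted p = 0.0508) and the additive replicate block (-0.60, adjusted p = 0.0641), but was kept when samples were paired within diet (-0.61, adjusted p = 0.0122). No label gives this pairing by replicate number, which was chosen from these data. HFD cold replicate 2 was the highest of its group for all 15 genes. Without it, 7 of the 15 were called lower in the cold on HFD and the median was -0.55, whereas without HFD cold replicate 1 none was called, 5 had an unadjusted p below 0.05 and the median was -0.25.

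Etfa, a subunit of the electron transfer flavoprotein, was the enzyme of this set that was called for the diet. It had 557, 512 and 608 CPM in NCD RT, 636, 557 and 806 in NCD cold, 967, 930.2 and 933 in HFD RT and 593, 812 and 613 in HFD cold. The HFD RT libraries lay above all others, with a log2 difference from NCD RT of 0.75 ± 0.16 (adjusted p = 0.0357). That call was lost when any NCD RT or HFD RT replicate, NCD cold replicate 1 or HFD cold replicate 3 was left out (0.69 to 0.79, adjusted p from 0.0528 to 0.132). Etfa did not pass in the cold on HFD (-0.49 ± 0.16, adjusted p = 0.07) but did when samples were paired by replicate number within diet (-0.50, adjusted p = 0.0327).

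The remaining 10 of the set (Acadvl, Acadl, Acadm, Acads, Hadha, Hadhb, Eci2, Decr1, Etfb and Etfdh) were called in no comparison. Their levels ran from 127 to 194 CPM for Eci2 to 3953 to 5877 CPM for Hadhb over the 12 libraries. Etfdh, the ubiquinone oxidoreductase that receives the electrons, had 997, 899.7 and 902 CPM in NCD RT, 1283, 1166 and 1368 in NCD cold, 1260.0, 1359 and 1208 in HFD RT and 860.3, 1259 and 884 in HFD cold. It was higher in the cold on NCD without overlap (0.45 ± 0.15, adjusted p = 0.0947) and lower in the cold on HFD with overlap (-0.35 ± 0.15, adjusted p = 0.153).

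The difference between the cold effects on the 2 diets (interaction, cold on HFD minus cold on NCD) was tested gene by gene, and edgeR called 0 of the 39 and 0% of all genes. At an unadjusted p below 0.05 stood 16 of the 39 genes (41.0%) and 6.52% of all genes. DESeq2 called 2 members, Acot11 and Etfdh, the latter with a log2 difference of -0.78 ± 0.21 (adjusted p = 0.0491), and 62 genes in all. The median log2 interaction was -0.40 over the 39 genes, -0.55 over the 15 mitochondrial enzymes and -0.03 over all genes. Other lists shifted as well. The median was -0.40 over the 23 other mitochondrial genes (20 below 0), -0.43 over the general adipocyte markers (6 of 6 below 0) and -0.83 over the skeletal muscle markers (17 of 17 below 0). It was 0.07 over the brown adipocyte markers (5 of 11 below 0) and 0.79 over the macrophage markers (8 of 8 above 0). All 15 mitochondrial enzymes had an interaction below 0, from -0.80 for Etfdh to -0.02 for Etfb, and 14 or 15 of them did in every alternative setting that gives this test. At an unadjusted p below 0.05 stood 9 of the 15. That number was 4 without NCD cold replicate 3, and ran from 2 with batch 1 alone to 13 without HFD cold replicate 2. These medians describe genes of the same libraries and are not a test.

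**Figure D5:**
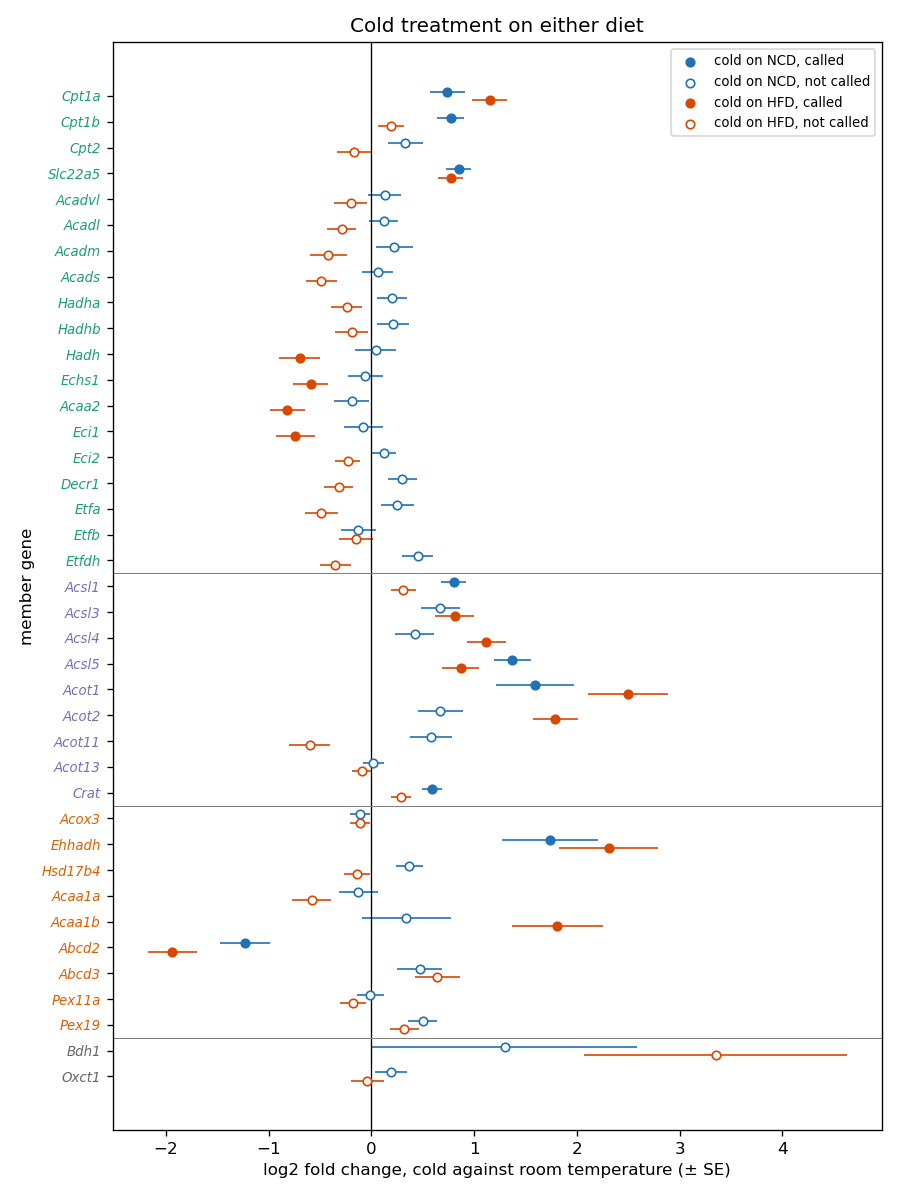
Log2 fold change (± SE) of the 39 genes for cold against RT on NCD (blue) and on HFD (orange), with filled points for called genes. The mitochondrial enzymes lie at or above 0 on NCD for 11 of 15 and below 0 on HFD for 15 of 15, and Abcd2 is lowest on either diet.

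Peroxisomal genes had the largest fall and some of the largest rises. Abcd2, a transporter that brings very long chain acyl-CoA into peroxisomes, had 159, 151 and 173 CPM in NCD RT and 64.7, 47.7 and 93.4 in NCD cold. On HFD it had 286, 299 and 256 CPM at RT and 52.4, 92.2 and 74.7 in the cold. It fell in the cold on NCD (-1.23 ± 0.24, adjusted p = 0.0116) and on HFD (-1.94 ± 0.24, adjusted p = 0.00106), to overlapping levels. The HFD RT libraries lay above the NCD RT libraries, but this difference of 0.80 ± 0.24 was not called (adjusted p = 0.108).

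Ehhadh, the peroxisomal bifunctional enzyme, had 109, 65.3 and 59.9 CPM in NCD RT, 247, 372 and 163 in NCD cold, 57.0, 73.9 and 90.8 in HFD RT and 675, 198 and 229 in HFD cold. Every cold library lay above every RT library. The rise was 1.74 ± 0.47 on NCD (adjusted p = 0.0452) and 2.31 ± 0.48 on HFD (adjusted p = 0.0107). The HFD cold value was led by replicate 1, without which the rise was 1.56 ± 0.35 (adjusted p = 0.0264). The call on NCD was lost without any NCD RT or HFD RT replicate or without NCD cold replicate 1 or 2 (log2 1.40 to 2.07, adjusted p from 0.0512 to 0.155).

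Acaa1a and Acaa1b encode the peroxisomal thiolases and share 43.8% of the 31-base words of the Acaa1a transcript, so they are given together and their split is uncertain. Acaa1a had 111, 95.6 and 127 CPM in NCD RT, 106, 83.6 and 116 in NCD cold, 80.5, 85.4 and 86.8 in HFD RT and 39.3, 65.3 and 64.4 in HFD cold. It was lower on HFD in the cold (-0.85 ± 0.19, adjusted p = 0.03), a call lost without NCD cold replicate 1 or 3 or HFD cold replicate 1 or 3 (-0.62 to -0.95, adjusted p from 0.057 to 0.101). In the cold on HFD its difference was -0.58 ± 0.19 (adjusted p = 0.0724), and -0.61 (adjusted p = 0.017) when samples were paired by replicate number within diet. Acaa1b had 32.5, 28.7 and 33.7 CPM in NCD RT, 38.7, 41.8 and 39.3 in NCD cold, 22.5, 24.4 and 28 in HFD RT and 48.2, 40.5 and 174 in HFD cold. Replicate 3 of HFD cold stood far above the others. The rise in the cold on HFD was 1.81 ± 0.44 (adjusted p = 0.0226), 0.84 ± 0.13 without that library (adjusted p = 0.00622), and not called without any of the HFD RT replicates (1.79 to 1.91, adjusted p from 0.0569 to 0.0733). The summed CPM of the pair ranged from 87.6 to 239 in HFD cold and from 103 to 161 over the other groups.

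Acox3, Hsd17b4, Abcd3, Pex11a and Pex19 were called in no comparison. Pex19, a receptor that brings membrane proteins to peroxisomes, came closest, with 308, 292 and 262 CPM in NCD RT against 432, 402 and 385 in NCD cold (0.50 ± 0.14, adjusted p = 0.0584), and was called with batch as a term (0.50, adjusted p = 0.0193) and with the additive replicate block (0.50, adjusted p = 0.0259). Abcd3 had 434, 755 and 782 CPM in HFD cold against 412 to 439 in HFD RT (0.64 ± 0.22, adjusted p = 0.0825, and 0.0263 by DESeq2). Acox3 (56.6 to 77.3 CPM over the 12 libraries) and Pex11a (40.1 to 59.5 CPM) varied least.

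The ketone genes differed by orders of magnitude in level. Bdh1, the mitochondrial 3-hydroxybutyrate dehydrogenase, had 0.373, 4.18 and 0.318 CPM in NCD RT, 0.516, 10.4 and 0.805 in NCD cold, 0.193, 0.784 and 4.35 in HFD RT and 24.4, 10.3 and 23.8 in HFD cold. The libraries with more than 4 CPM outside HFD cold were NCD RT 2, NCD cold 2 and HFD RT 3, which had the highest summed level of skeletal muscle markers in their groups (21943, 12297 and 23871 CPM). In HFD cold, replicates 1 and 2 had 24.4 and 10.3 CPM of Bdh1 at 737 and 984 CPM of muscle markers, the lowest muscle levels of all libraries. The cold difference on HFD was 3.35 ± 1.28 without a call (adjusted p = 0.115), 3.70 ± 0.56 when samples were paired by replicate number within diet (adjusted p = 0.00444) and 6.00 ± 0.98 with the muscle marker level as a covariate (adjusted p = 0.00349). With that covariate Bdh1 was also higher on HFD in the cold (4.43 ± 0.88, adjusted p = 0.0138), against 2.36 ± 1.23 without it (adjusted p = 0.286). The HFD RT counts of Bdh1 were 3, 15 and 154, so the size of its cold effect on HFD is imprecise. What part muscle tissue had in these values was not tested.

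Oxct1, which activates acetoacetate for oxidation, had 231, 254 and 235 CPM in NCD RT, 249.97, 266 and 302 in NCD cold, 286, 475 and 388 in HFD RT and 371, 366 and 377 in HFD cold. Both HFD groups lay above their NCD groups, with differences of 0.67 ± 0.16 at RT (adjusted p = 0.0521) and 0.44 ± 0.16 in the cold (adjusted p = 0.121) that were not called. At RT the difference was called with the additive replicate block (0.66, adjusted p = 0.0437), by DESeq2 (0.65, adjusted p = 0.00204) and with the muscle covariate (0.68, adjusted p = 0.0455).

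Of 110 further genes listed for the same pathways, 106 were in the table and 102 were tested. In the cold on NCD 20 of the 102 rose and 6 fell, and on HFD 16 rose and 13 fell. The HFD raised 1 and lowered 4 at RT, and raised 2 and lowered 11 in the cold. The shares of all genes called higher and lower were 3.72% and 2.55%, 5.39% and 4.19%, 0.992% and 1.09%, and 2.06% and 2.69% in the same order. By class, 11 of the 44 other peroxisomal genes rose and 2 fell in the cold on NCD, and 9 rose and 2 fell on HFD. Of the 23 other mitochondrial genes 2 rose and 2 fell on NCD, and 2 rose and 6 fell on HFD. Of the 16 tested other genes of acyl-CoA handling 5 rose and 1 fell on NCD, and 5 rose and 3 fell on HFD. Of the 6 tested other ketone genes 0 rose and 1 fell on NCD, and 0 rose and 2 fell on HFD, and of the 13 regulators 2 rose on NCD and 0 on HFD.

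The largest rise on NCD was that of Acot5, a peroxisomal thioesterase, which had 0, 1 and 4 counts in NCD RT and 18, 63 and 53 in NCD cold, and 0, 0 and 1 in HFD RT against 140, 44 and 264 in HFD cold. It was called on either diet, on NCD with a fitted log2 fold change of 4.84 ± 0.82 (adjusted p = 0.00659). With 1 count in all in HFD RT, no fold is given on HFD (adjusted p = 0.00105). Slc27a2, a very long chain acyl-CoA synthetase, rose on NCD (1.74 ± 0.23, adjusted p = 0.00194) and on HFD (1.79 ± 0.23, adjusted p = 0.00122). Ppargc1a, a coactivator of oxidative genes, rose on NCD (2.25 ± 0.50, adjusted p = 0.0202), with 70.5, 49.5 and 53.5 CPM in NCD RT and 274, 475 and 74.8 in NCD cold. Acot12, a cytosolic acetyl-CoA thioesterase, had 1.29, 1.62 and 1.5 CPM in HFD RT and 18.7, 9.29 and 15.6 in HFD cold (3.30 ± 0.32, adjusted p = 0.000285).

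In the other direction, the monocarboxylate transporter Slc16a7 fell on NCD (-1.78 ± 0.23, adjusted p = 0.00141) and on HFD (-1.82 ± 0.23, adjusted p = 0.00106), as did the medium chain synthetase Acsm3 (-1.31 ± 0.27 and -1.88 ± 0.27, adjusted p = 0.0149 and 0.00203). Acsm5 was the other of the 3 largest falls on NCD (-1.65 ± 0.32, adjusted p = 0.0121) and Eci3 on HFD (-1.89 ± 0.25, adjusted p = 0.00139). On HFD at RT the falls were led by Acss2, which makes acetyl-CoA from acetate (-1.40 ± 0.26, adjusted p = 0.0186), Acsf2 (-0.88 ± 0.17, adjusted p = 0.0233) and Acacb (-0.80 ± 0.17, adjusted p = 0.0372), and Acot9 rose (0.50 ± 0.11, adjusted p = 0.0416).

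On HFD in the cold the falls were led by Aacs, the acetoacetyl-CoA synthetase, which had 725, 467 and 1004 CPM in NCD cold and 89.4, 181 and 98.8 in HFD cold (-2.57 ± 0.34, adjusted p = 0.0025). Acss2 (-1.77 ± 0.26, adjusted p = 0.0043) and Acss3 (-1.39 ± 0.18, adjusted p = 0.00245) followed. The 2 that rose were Acot12 (1.89 ± 0.30, adjusted p = 0.00618) and Far1, which makes fatty alcohols for ether lipids (0.73 ± 0.11, adjusted p = 0.00606).

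Acsl5 was most like Tmem147, Sptlc1, 1700037H04Rik, 2010003K11Rik and Rbx1 over the 12 libraries, with Pearson's r of log2 CPM from 0.965 to 0.976 and Spearman's rho from 0.937 to 0.965. These genes were picked for that likeness, and all points share the same libraries, groups and depths, so the values are a description.

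Markers of other cell types moved with some groups. All 17 skeletal muscle markers were detected, 0 were called by edgeR and 0 had an unadjusted p below 0.05 in any comparison, and their summed level ranged from 3581 to 21943 CPM in NCD RT, 1535 to 12297 in NCD cold, 2556 to 23871 in HFD RT and 737 to 6991 in HFD cold. All 17 had a log2 fold change below 0 for the cold on either diet. Muscle also uses most of the mitochondrial genes described here. With the muscle level as a covariate, all 9 calls for cold on NCD and all 14 for cold on HFD remained and 1 and 4 were added. Brown adipocyte markers (11 genes) summed to 6796 to 8384 CPM in NCD RT, 20757 to 24162 in NCD cold, 8778 to 11267 in HFD RT and 16733 to 20149 in HFD cold. In the cold, 5 of the 11 rose on NCD (Ucp1, Dio2, Elovl3, Ppargc1a and Kcnk3) and 4 on HFD (the same without Ppargc1a), none fell, and Ucp1 made up most of the sum. The others ranged on the log2 scale from -0.45 (Ebf2) to 0.45 (Zic1) on NCD and from -0.64 (Cox8b, adjusted p = 0.075) to 1.26 (Ppargc1a, adjusted p = 0.116) on HFD. General adipocyte markers (6 genes) summed to 13162 to 15394 CPM in NCD cold and 8148 to 10609 in HFD cold, without overlap. For the HFD in the cold all 6 lay below 0 (median -0.55), 5 had an unadjusted p below 0.05 and 1 was called (Fabp4, -0.71, adjusted p = 0.033), beside the 3 members that fell in that comparison. In the cold, 2 of the 6 rose on NCD (Fabp4 and Cidec) and 1 fell on HFD (Adipoq, -0.69, adjusted p = 0.0232). Endothelial markers (5 genes) lay above 0 for the HFD at RT in 5 of 5, with a median of 0.47, 4 at an unadjusted p below 0.05 and 1 called (Pecam1, 0.72, adjusted p = 0.00786). Macrophage markers (8 genes) summed to 105 to 143 CPM in NCD cold and 144 to 321 in HFD cold, with all 8 above 0 in that comparison and 2 called. White adipocyte markers (7 genes, 6 tested) summed to 193 to 335 CPM in NCD RT and 57.3 to 166 in NCD cold. On HFD their sum was 136 to 325 CPM at RT and 66.0 to 131 in the cold. For the cold on NCD all 6 lay below 0 (median -0.68) and 0 were called. On HFD 3 of 6 lay below 0 in the cold, and 1 was called higher and 1 lower. The HFD lowered 1 at RT, and in the cold it raised 1 and lowered 1. The part of the adipocyte, white adipocyte, endothelial and macrophage markers in the results was not tested. Hepatocyte markers (6 genes) summed to 2.18 to 5.94 CPM in every library.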

How the data were processed

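Total RNA was sequenced from 12 iBAT libraries (rRNA-depleted, paired-end). Per the labels and methods, the authors trimmed reads with cutadapt, quantified them with salmon on GRCm38 transcripts and tested with DESeq2. The strand setting is not given in the sources used here. The deposited values are whole-number estimated counts per gene for 61210 genes. Columns of other samples numbered 0.

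From these counts, genes were filtered with filterByExpr (minimum count 10, 16737 kept), scaled by TMM and tested in 1 model of 4 groups with edgeR 4.0.16 (quasi-likelihood, R 4.3.3, limma 3.58.1), adjusted over all tested genes. Calls between 2 groups needed an adjusted p below 0.05 and an absolute log2 fold change above 0.5, the interaction 0.05 and the 4-group test 0.001. Lengths came from the GRCm38 annotation and promoters from RefSeq. DESeq2 1.42.0, scaling, filter, batch, replicate block, muscle covariate and left-out libraries were the alternatives.

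Same-numbered samples deviated together within each diet (r from 0.155 to 0.456 over the 6 pairs), so cold comparisons were also fitted as paired within diet. Differently numbered samples of the same diet had r from -0.289 to 0.134. No label says that same-numbered samples belong together, so this pairing was chosen from the data. The highest r (0.456 and 0.386) were those of NCD samples numbered 2 and HFD samples numbered 3, which had the highest muscle marker level of their groups. Whether the number stands for batch, muscle content or paired mice was not tested. The members and lists were chosen with earlier results of these data known. By rule, the text names the members called in a comparison of 2 groups with the value of every library, the highest and lowest member per length of each class, genes with a near-identical copy together, the 3 pathway genes of largest called change in each direction, and the 5 genes most like the member of smallest 4-group p. Uncalled members given with values (Cpt2, Etfdh, Acot13, Pex19, Abcd3, Acox3, Pex11a, Oxct1) were chosen after their values were seen. Library totals of 15136861 to 46740702 counts limit precision mainly for genes of few counts. The counts of Bdh1 also differed widely within groups, from 6 to 72 in NCD RT and from 3 to 154 in HFD RT.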

Additional observations from a re-analysis of the deposited data

How the results depend on the processing

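Of 736 alternatives of single member calls, 638 kept the call, 98 lost it and 0 reversed. The number of members called was 9 for cold on NCD, 14 for cold on HFD, 3 for HFD at RT, 5 for HFD in the cold, 0 for the interaction and 5 over the 4 groups. With batch 1 alone, which leaves 2 libraries a group, these were 4, 7, 0 and 2 for the comparisons of 2 groups and 0 over the 4 groups, and of all genes 2.12%, 2.51%, 0.253%, 0.32% and 0%. With only the 6 libraries compared, 8 were called for cold on HFD and 3 for HFD in the cold (5.28% and 0.949% of all genes). With DESeq2, 6 were called for HFD at RT, 8 for HFD in the cold, 2 for the interaction and 19 over the 4 groups, where it called 4.99%, 7.96%, 0.374% and 15.8% of all genes. Without a count filter, 5 were called for HFD at RT and 11 over the 4 groups (1.37% and 2.89% of all genes). With library totals alone 9 were called for HFD at RT (4.73% of all genes), and with the muscle covariate 5 (2.99%). The causes of these differences were not tested. The fits with batch 1 alone or with only the 6 libraries compared also hold fewer libraries. Leaving out 1 library at a time gave 6 to 10 for cold on NCD, 9 to 18 for cold on HFD, 0 to 4 for HFD at RT, 4 to 8 for HFD in the cold and 2 to 5 over the 4 groups.

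With the replicate block as an additive term, 10 members were called for cold on NCD, 13 for cold on HFD, 4 for HFD at RT, 5 for HFD in the cold and 4 over the 4 groups. Paired within diet, 9 and 17 were called for the cold comparisons, the added ones being Bdh1, Etfa and Acaa1a. Between the diets, same-numbered samples share a batch label, and their deviations had r from -0.211 to 0.365, so they were not treated as paired.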
